A study of Mus musculus with 4 samples.

Results

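The mitochondrial ribosomal protein genes were taken as every row whose symbol begins with Mrpl or Mrps followed by a digit. This gave 77 of the 22083 genes in the table, 48 with an Mrpl and 29 with an Mrps symbol, and all 77 are annotated as protein coding. Mitochondria carry their own ribosome, the mitoribosome, which translates the few messenger RNAs of the mitochondrial genome into core subunits of the respiratory chain. Its protein parts are all encoded in the nucleus, made in the cytosol and imported. Mrpl genes encode proteins of the large subunit, where peptide bonds form. Most Mrps genes encode proteins of the small subunit, which reads the mRNA. Mrps30 and Mrps18a are members of the large subunit despite their names. Genes such as Mrps36 were counted by symbol alone. Some of these proteins have relatives in the bacterial ribosome, and others exist only in mitochondria.

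ILC2s, the group 2 innate lymphoid cells, live in tissues and release type 2 cytokines. The study sorted them from wild-type C57BL/6 mice at 9 weeks of age, out of small-intestinal lamina propria (SI-ILC2s) or out of mesenteric white fat (WAT-ILC2s), and made 2 RNA libraries for each tissue. No treatment or genotype other than wild type is given in the labels. Whether a tissue's libraries came from separate mice is not stated, so all p-values measure only how far these libraries spread, which could be technical variation.

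The deposited values are RPKM, reads scaled to gene length and library size, so levels of different genes can be compared. The steps between low values put the depth at 55400000 to 76100000 reads a library. The 14 ILC2 markers checked, among them Gata3, Rora and Il7r, summed to 1541 and 1500.4 RPKM in SI-ILC2s, against 1297 and 1195 in WAT-ILC2s. Of these 14, 5 were called toward SI-ILC2s and 4 toward WAT-ILC2s, against 17.9% and 29.6% of all tested genes. Markers of other cells were not equal between tissues. Red cell genes (5 of 5 called) summed to 139.8 and 88.9 RPKM in WAT-ILC2s and to 41.5 and 13.2 in SI-ILC2s. The 5 fibroblast genes (2 tested, 2 called) summed to 9.79 and 4.39 RPKM in WAT-ILC2s against 0.417 and 0.524 in SI-ILC2s. The 6 T cell genes (2 tested, 1 called) summed to 23.2 and 12.4 RPKM against 8.53 and 6.82. The 5 B and plasma cell genes (2 tested, 2 called) summed to 24.6 and 18.9 RPKM in SI-ILC2s against 3.07 and 2.49 in WAT-ILC2s. The 5 adipocyte genes (1 tested, 1 called) summed to 4.62 and 3.96 RPKM in WAT-ILC2s against 0.719 and 0.348 in SI-ILC2s. In the same order, 6 macrophage and dendritic cell genes (2 tested, 1 called) summed to 6.47 and 7.92 against 3.66 and 1.77. The 6 intestinal epithelial genes (1 tested, 1 called) summed to 8.82 and 8.36 against 5.23 and 11.1. The 4 endothelial genes (1 tested, 1 called) summed to 3.09 and 4.49 against 4.27 and 5.12. The adipocyte-defining gene Adipoq was at 0.01 and 0.11 RPKM in WAT-ILC2s and 0.12 and 0.06 in SI-ILC2s. Fabp4 carried the adipocyte sum, with 4.32 and 3.43 RPKM in WAT-ILC2s against 0.26 and 0.17 in SI-ILC2s, and the other 3 genes of the list, Plin1, Cidec and Lep, were at 0.24 RPKM or less. The part of such cells in the results was not tested. The 13 mRNAs of the mitochondrial genome, which the mitoribosome translates, were listed at 0 in all 4 libraries and give no readout here.

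Promoter sequence is available for 68 of the 77 genes, as 74 windows of 300 bases from 250 before to 50 after the start (RefSeq, build GRCm38.p6). Nuclear genes of mitochondrial function are known for sites of the factors NRF1, GABP (an ETS-family factor) and YY1, so the letters GCGCA and GCGC with any base between them for NRF1, CCGGAAG for ETS factors and AAGATGGCG for YY1 were searched on both strands. The NRF1 letters were in 13 windows (17.6%, against 11.2% of the windows of all tested genes and 6.38% of all 21263 windows), the ETS letters in 25 (33.8%, against 19.8% and 11.6%) and the YY1 letters in 8 (10.8%, against 3.62% and 1.83%). At least 1 of the 3 was in 40 windows (54.1%, against 31.1% for tested genes). The E-box CACGTG, the letters bound by MYC, was in 7 windows (9.46%, against 10.7% of tested genes). A match only says that the letters are present, and some genes have more than 1 window. The 5 genes that follow were higher in SI-ILC2s and were chosen after their values were known, with 1 or more matches for each motif and, in Mrps2, the gene with the largest change, none of the 3. Capitals mark the matches, which do not overlap each other.
Mrpl44 (chr1:79775768-79776067, plus strand): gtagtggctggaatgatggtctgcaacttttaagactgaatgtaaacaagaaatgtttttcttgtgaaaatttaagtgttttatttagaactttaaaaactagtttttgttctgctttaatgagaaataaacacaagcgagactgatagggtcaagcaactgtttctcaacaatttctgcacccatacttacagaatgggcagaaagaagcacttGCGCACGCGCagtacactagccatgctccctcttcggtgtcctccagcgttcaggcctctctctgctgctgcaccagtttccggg
Mrpl12 (chr11:120484387-120484686, plus strand): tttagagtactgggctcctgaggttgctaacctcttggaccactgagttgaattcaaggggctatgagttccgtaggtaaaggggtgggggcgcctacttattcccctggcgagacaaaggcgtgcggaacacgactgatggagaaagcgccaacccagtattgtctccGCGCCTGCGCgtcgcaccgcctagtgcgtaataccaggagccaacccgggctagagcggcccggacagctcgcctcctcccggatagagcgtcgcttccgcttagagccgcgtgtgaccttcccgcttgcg
Mrpl43 (chr19:45006393-45006692, minus strand): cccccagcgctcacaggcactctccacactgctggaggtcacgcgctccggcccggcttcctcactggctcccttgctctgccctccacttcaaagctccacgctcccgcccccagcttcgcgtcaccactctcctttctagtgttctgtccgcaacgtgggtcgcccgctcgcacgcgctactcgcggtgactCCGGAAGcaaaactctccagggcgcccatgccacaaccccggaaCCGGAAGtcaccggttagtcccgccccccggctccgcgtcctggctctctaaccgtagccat
Mrps11 (chr7:78782881-78783180, plus strand): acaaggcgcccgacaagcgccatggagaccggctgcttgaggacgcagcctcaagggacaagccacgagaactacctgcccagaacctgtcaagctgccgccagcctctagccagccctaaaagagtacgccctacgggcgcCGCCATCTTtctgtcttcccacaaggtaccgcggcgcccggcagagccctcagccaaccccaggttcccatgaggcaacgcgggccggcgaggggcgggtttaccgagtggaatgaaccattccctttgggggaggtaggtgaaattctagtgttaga
Mrps2 (chr2:28467816-28468115, plus strand): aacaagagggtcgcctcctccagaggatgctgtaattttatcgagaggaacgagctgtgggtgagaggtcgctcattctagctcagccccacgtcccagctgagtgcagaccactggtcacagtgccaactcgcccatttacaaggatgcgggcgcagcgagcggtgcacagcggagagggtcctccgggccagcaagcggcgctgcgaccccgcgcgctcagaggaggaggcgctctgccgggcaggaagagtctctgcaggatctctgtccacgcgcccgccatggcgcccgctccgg
The capitals are a match to the NRF1 letters in Mrpl44 and, on the opposite strand, in Mrpl12, 2 matches to the ETS letters in Mrpl43, and a match to the YY1 letters on the opposite strand in Mrps11.

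Mitoribosomal protein genes were expressed at modest levels. Over the 4 libraries the mean of the 77 genes ranged from 0.329 to 17.3 RPKM with a median of 2.17. The 64 that passed the filter for testing (at least 1 RPKM in at least 2 libraries) had a median of 2.595 RPKM, against 4.13 for all 8230 genes tested. The sum over the 77 genes was 268.8 and 253.8 RPKM in the SI-ILC2 libraries and 205.4 and 182.95 in the WAT-ILC2 libraries, which is 0.169% and 0.168% of all RPKM of the intestinal libraries and 0.145% and 0.134% of the adipose libraries. The tissues did not overlap in this sum. From exon length and depth, 39 of the 77 genes had about 200 reads or more in every library and 9 had fewer than about 50 in at least 1.

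The 6 genes with the highest mean levels were Mrps7, Mrpl9, Mrpl24, Mrps6, Mrpl12 and Mrpl4. Mrps7, a protein of the head of the small subunit, had 19.7 and 19.3 RPKM in SI-ILC2s, against 14.97 and 15.3 in WAT-ILC2s. All other members were below these values in all 4 libraries, and its change of 0.35 ± 0.13 (SE) on the log2 scale missed the threshold (adjusted p = 0.068). Mrpl9 had 12.2 and 11.7 RPKM against 10.8 and 8.77, Mrpl24 had 11.3 and 8.37 against 12.5 and 10.3, and Mrps6 had 8.75 and 7.72 against 10.2 and 8.70. Libraries of the tissues overlapped for Mrpl24 and Mrps6. Mrpl9 was higher in both SI-ILC2 libraries but was not called (adjusted p = 0.19). Mrpl24 and Mrps6 had adjusted p-values of 0.39 and 0.36.

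At the low end were Mrpl34, Mrpl57, Mrpl35, Mrpl1, Mrps18c and Mrpl11, with means between 0.329 and 0.540 RPKM, and none of these was tested. Mrpl34, a relative of a small bacterial large-subunit protein, had 0.305 and 0.311 RPKM in SI-ILC2s, against 0.418 and 0.283 in WAT-ILC2s, and its lowest value stands for about 11 reads. Mrpl1, a protein of the mobile L1 stalk, had 0.575 and 0.548 against 0.372 and 0.352 RPKM, and Mrpl35 had 0.659 and 0.420 against 0.388 and 0.246. Both were higher in both SI-ILC2 libraries. Mrpl11, of the base of the stalk where translation factors bind, had 0.607 and 0.546 against 0.631 and 0.375 RPKM, and Mrpl57 had 0.482 and 0.433 against 0.458 and 0.315. The tissues overlapped for Mrpl11, Mrpl57 and Mrpl34.

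The comparison asked whether these genes differed between ILC2s of the intestine and of adipose tissue. More of them were higher in SI-ILC2s than in WAT-ILC2s: 26 of the 64 tested were called higher in SI-ILC2s, 1 was called higher in adipose tissue and 37 did not pass (limma on log2(RPKM + 1), Benjamini-Hochberg adjusted p below 0.05 over all tested genes). Among all tested genes 17.9% were called toward SI-ILC2s and 29.6% toward WAT-ILC2s. The median change of the 64 was 0.36 on the log2 scale, while the median of all tested genes was -0.15. The balance over all genes moved with the scaling: 1470 genes were called toward SI-ILC2s and 2436 toward WAT-ILC2s as deposited, 1909 and 1868 after median-of-ratios scaling, 1125 and 2891 after rescaling to equal sums and 1772 and 1886 after quantile normalization. The counts for the mitoribosomal genes were 30 and 1, 22 and 1, and 31 and 1 under these scalings. Fold changes on the log2(RPKM + 1) scale understate those of low genes. In bulk RNA, fewer cells of a type and less RNA per cell cannot be told apart. Differences made by the isolation from each tissue and differences of the cells cannot be told apart either.

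The filter itself bears on these counts, because 6 of the 64 passed only through their SI-ILC2 libraries and 1 only through its WAT-ILC2 libraries. Of these 6, Mrpl39, Mrpl40, Mrpl41, Mrps22 and Mrps31 were called and Mrpl36 was not, and Mrpl14, which passed through WAT-ILC2s, was not called. Among the 50 genes with at least 1 RPKM in every library, 17 were called toward SI-ILC2s and 1 toward WAT-ILC2s, against 17.2% and 25.8% of all such genes. Without any filter, 19 and 1 of the 77 were called, against 5.95% and 9.59% of the 21851 genes then tested. The SI-ILC2 libraries were separated from the WAT-ILC2 libraries upward in 41 of the 77 genes and downward in 12, where 23.0% and 30.8% of all rows of the table were so. Among the 64 tested genes these were 38 and 9, against 29.8% and 45.9% of all tested genes. Without SI-ILC2 replicate 1, 17 mitoribosomal genes were called higher in SI-ILC2s, against 12.0% of all tested genes, and 18.1% of all were called toward WAT-ILC2s.

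**Figure D1:**
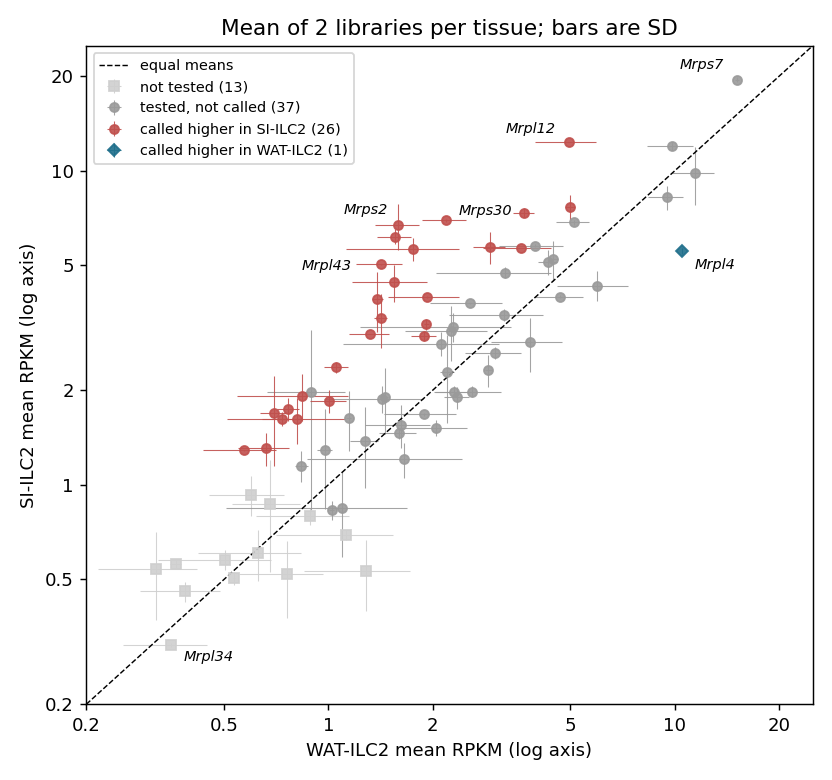
Mean RPKM of each of the 77 genes in WAT-ILC2s (x axis) and SI-ILC2s (y axis), both on log axes, with bars for the SD of 2 libraries and a dashed line of equal means. The 26 genes called higher in SI-ILC2s (red) lie above the line, and Mrpl4, the gene called higher in WAT-ILC2s (blue diamond), lies below it.

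Of the 26 genes, 18 encode proteins of the large subunit (of 42 tested) and 8 of the small subunit (of 22 tested), and the median changes of the subunits were 0.45 and 0.26. In each of the 26, the lower SI-ILC2 library was above the higher WAT-ILC2 library, and the change between tissues was larger than the difference between the libraries of either tissue. Changes larger than 1 on the log2 scale were found for 8 genes, which are described next.

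Mrps2 encodes a small-subunit protein with a bacterial relative (chromosome 2, 28468066 to 28471178, GRCm38). It had 5.93 and 7.52 RPKM in SI-ILC2s, against 1.43 and 1.76 in WAT-ILC2s. The SI-ILC2 mean of 6.73 ± 1.13 (SD, n = 2) was 4.22 times the WAT-ILC2 mean of 1.59 ± 0.23. The change was 1.57 ± 0.17 (SE), the largest of the 64 (limma, adjusted p = 0.0011).

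Mrpl44, a mitochondria-specific large-subunit protein with a fold related to ribonuclease III (chromosome 1, 79776018 to 79781445), had 6.41 and 5.94 RPKM in SI-ILC2s, against 1.44 and 1.69 in WAT-ILC2s. This is a ratio of means of 3.95 and a change of 1.49 ± 0.14 (limma, adjusted p = 7.6e-04). Both libraries of each tissue lay close together. Its exons overlap 126 bases of Wdfy1 on the opposite strand, and the strand setting of the counting is not known here.

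Mrps30, in the large subunit despite its symbol (chromosome 13, 118378381 to 118387252), had 6.91 and 7.02 RPKM in SI-ILC2s, against 1.96 and 2.41 in WAT-ILC2s, a change of 1.33 ± 0.15. Its exons share 623 bases with B430218F22Rik on the opposite strand, which was itself higher in SI-ILC2s. Mrpl43, another mitochondria-specific protein of the large subunit (chromosome 19, 45004829 to 45006442), had 5.03 and 5.04 RPKM against 1.57 and 1.27, a change of 1.32 ± 0.14. The SI-ILC2 values of Mrpl43 were nearly equal, and the ratio of its means was 3.55. Its exons share 507 bases with Twnk on the opposite strand.

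Mrpl46 (chromosome 7, 78775236 to 78783531) had 5.96 and 5.31 RPKM in SI-ILC2s, against 2.20 and 1.31 in WAT-ILC2s, a change of 1.29 ± 0.19. Mrps11, a small-subunit protein with a bacterial relative (chromosome 7, 78783119 to 78792989), starts on the other strand beside it, and the annotated genes overlap at their starts. Mrps11 had 3.02 RPKM in both SI-ILC2 libraries against 1.44 and 1.20 in WAT-ILC2s, a change of 0.79 ± 0.14 (limma, adjusted p = 0.005). Both genes of this pair were called in the same direction, and their exons share 173 bases.

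Mrpl12 encodes the protein of the flexible stalk that recruits translation factors (chromosome 11, 120484613 to 120489065). It was the most abundant of the 8, with 12.36 and 12.37 RPKM in SI-ILC2s, against 5.65 and 4.24 in WAT-ILC2s. Its change was 1.18 ± 0.16, and the SI-ILC2 libraries differed far less than the WAT-ILC2 libraries. The exons of Mrpl12 share 200 bases with Gm16755 on the opposite strand. Mrpl54, a mitochondria-specific protein (chromosome 10, 81264713 to 81266934), had 4.52 and 3.31 RPKM against 1.42 and 1.35, a change of 1.03 ± 0.17. Its fewest reads, about 65, were in WAT-ILC2 replicate 1.

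The vertebrate mitoribosome holds relatives of the bacterial protein S18 from separate genes, and these are given side by side. Mrps18b (chromosome 17, 35910379 to 35916389) had 4.85 and 4.01 RPKM in SI-ILC2s, against 1.81 and 1.28 in WAT-ILC2s, a change of 1.10 ± 0.17. Its exons share 638 bases with Gm16279 on the opposite strand. Mrps18a had 3.15 and 3.34 RPKM against 1.90 and 1.94, a change of 0.54 ± 0.13 (limma, adjusted p = 0.019). The call of Mrps18a was lost without SI-ILC2 replicate 1 (limma, adjusted p = 0.069) and without SI-ILC2 replicate 2 (limma, adjusted p = 0.091). Mrps18c had 0.522 and 0.486 RPKM against 0.532 and 0.537 and was too low to be tested, with about 31 reads in its lowest library. The difference between the changes of these genes was not tested.

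**Figure D2:**
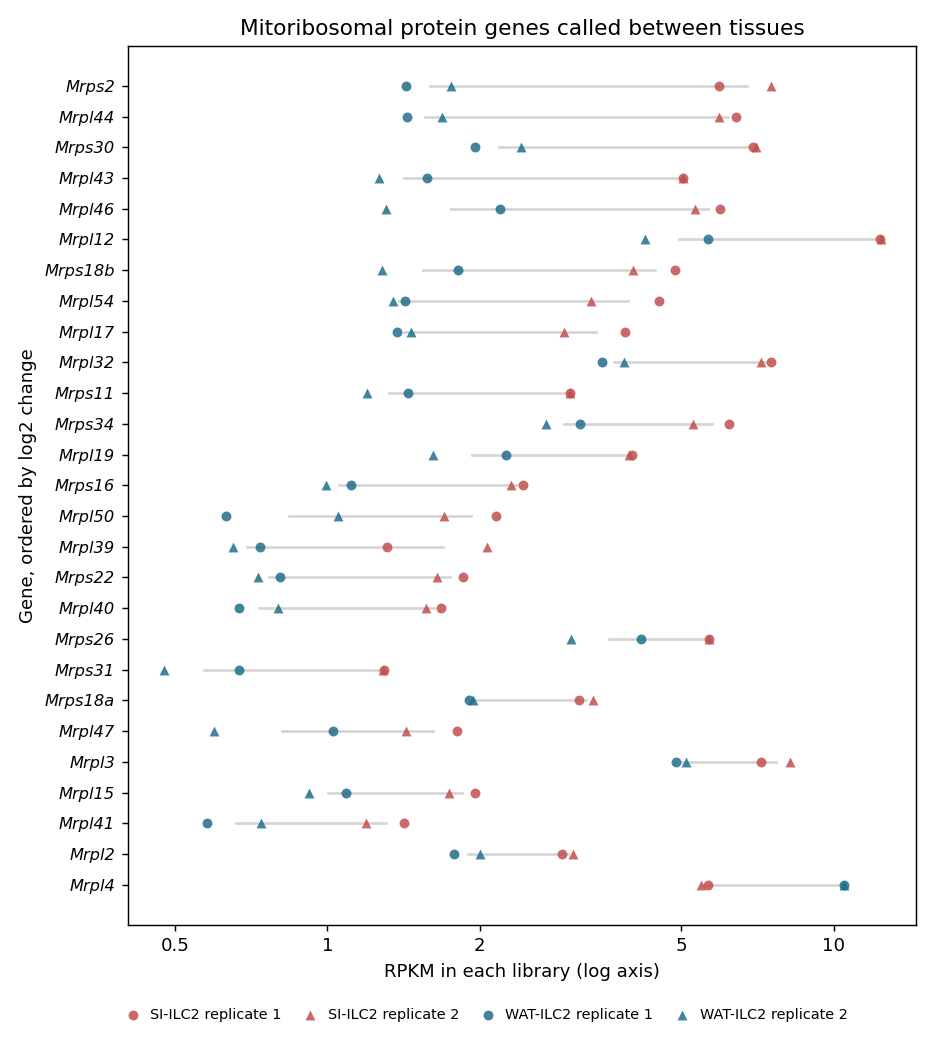
RPKM (log axis) of the 27 called genes in each of the 4 libraries, ordered by their log2 change, with SI-ILC2 libraries in red, WAT-ILC2 libraries in blue, circles for replicate 1 and triangles for replicate 2, and a grey line between the tissue means. The red and blue symbols do not overlap in any row, and Mrpl4 at the bottom is the gene with the WAT-ILC2 values on the right.

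The other 18 genes called higher in SI-ILC2s changed by 0.46 to 0.86 on the log2 scale. They were Mrpl17, Mrpl32, Mrps34, Mrpl19, Mrps16, Mrpl50, Mrpl39, Mrps22, Mrpl40, Mrps26, Mrps31, Mrpl47, Mrpl3, Mrpl15, Mrpl41 and Mrpl2, besides Mrps11 and Mrps18a. Mrpl17 and Mrpl32 led them, with 3.87 and 2.93 against 1.37 and 1.46 RPKM and with 7.52 and 7.19 against 3.49 and 3.86. Mrpl3, a core protein near the peptidyl transferase centre, had 7.17 and 8.18 RPKM against 4.88 and 5.11.

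Mrpl4 encodes a protein that lines the tunnel through which the new peptide leaves (chromosome 9, 21002738 to 21008839). It had 10.5 RPKM in both WAT-ILC2 libraries and 5.65 and 5.46 in SI-ILC2s. It fell by 0.81 ± 0.13 (SE) from adipose tissue to intestine (limma, adjusted p = 0.0042), and the ratio of the means was 1.89 toward WAT-ILC2s. The libraries of each tissue were close together. Both WAT-ILC2 libraries were also above both SI-ILC2 libraries in 8 other tested genes, Mrpl14, Mrpl37, Mrpl38, Mrpl48, Mrpl49, Mrpl51, Mrps15 and Mrps17, and in the untested Mrps18c, Mrps21 and Mrps33. The tested 8 had changes from -0.38 to -0.14 and were not called. Mrps21, a small-subunit protein, had 1.59 and 0.979 RPKM in WAT-ILC2s against 0.434 and 0.625 in SI-ILC2s, with about 24 reads in its lowest library.

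Several genes had changes near 0. Mrps27, a mitochondria-specific small-subunit protein, had 2.78 and 1.78 RPKM in SI-ILC2s, against 2.13 and 2.28 in WAT-ILC2s. Its change was 0.015 with a 95% interval from -0.42 to 0.45. Mrps35, Mrps10 and Mrpl23 had changes of -0.035, 0.056 and -0.076, and their intervals reached from -0.41 to 0.34, from -0.32 to 0.43 and from -0.39 to 0.24. These intervals reach to just under 0.46, the smallest change among the called genes.

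Grouped by origin, the counts below stand against 17.9% of all tested genes called toward SI-ILC2s and 29.6% toward WAT-ILC2s. Of 24 tested large-subunit proteins with bacterial relatives, 8 were higher in SI-ILC2s and 1 was lower, with a median change of 0.38. The list of mitochondria-specific large-subunit proteins had 18 tested genes, of which 10 were higher and none lower, with a median of 0.54. This list includes Ict1, the current Mrpl58, a peptide-release protein of the large subunit that the symbol rule does not match, which had 2.78 and 1.85 RPKM in SI-ILC2s, against 1.23 and 1.08 in WAT-ILC2s. In the small subunit, 3 of 12 proteins with bacterial relatives and 4 of 8 mitochondria-specific ones were higher and none lower, with medians of 0.15 and 0.44. The share of 3 of 12 is near that of all genes. Of the mitochondria-specific calls, 3 of the 10 (Mrpl39, Mrpl40 and Mrpl41) and 2 of the 4 (Mrps22 and Mrps31) passed the filter only through their SI-ILC2 libraries, and no call in the bacterial classes did. Whether the classes differ was not tested.

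Mitoribosomal proteins under other symbols moved both ways. Of 5, Ptcd3, a small-subunit protein of the pentatricopeptide type, was higher in SI-ILC2s (6.98 and 8.65 against 4.40 and 5.05 RPKM), and Dap3, a GTP-binding protein of the small subunit, was higher in WAT-ILC2s (12.0 and 9.995 against 6.71 and 5.81 RPKM, a change of -0.72 ± 0.16). Chchd1, Aurkaip1 and Gadd45gip1 did not pass the test.

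Together with these 5, the lists of mitochondrial translation, ribosome assembly, transcription, DNA upkeep and biogenesis regulators held 69 tested genes, of which 11 (15.9%) were called toward SI-ILC2s and 18 (26.1%) toward WAT-ILC2s, shares near the 17.9% and 29.6% of all tested genes. Among 17 tested mitochondrial aminoacyl-tRNA synthetase and amidotransferase genes, which charge mitochondrial tRNAs, 8 were higher in WAT-ILC2s and 1 in SI-ILC2s, with a median change of -0.45. Of these 8, Gatb, Rars2 and Qrsl1 passed the filter only through their WAT-ILC2 libraries. Gatb, a subunit of the amidotransferase, had 0.637 and 0.410 RPKM in SI-ILC2s, against 1.92 and 2.47 in WAT-ILC2s, a change of -1.07 ± 0.15 (limma, adjusted p = 0.0025). Tars2, for threonine, had 2.95 and 2.67 RPKM against 6.67 and 6.73, a change of -1.02 ± 0.14. The call toward SI-ILC2s was Lars2, for leucine, at 264.9 and 169.9 RPKM against 104.8 and 70.5. Its level was far above that of the other synthetase genes.

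Of 13 tested translation factor genes, 1 (7.69%) was called toward SI-ILC2s and 2 (15.4%) toward WAT-ILC2s, against 17.9% and 29.6% of all tested genes. The median change was -0.13. Pdf, which removes the formyl group from new peptides, had 2.46 and 2.37 RPKM against 1.26 and 1.27, and Guf1, a GTPase of the elongation factor type, had 1.48 and 1.39 against 2.57 and 2.16. Lrpprc, which stabilises mitochondrial mRNAs, had 2.93 and 4.60 RPKM in SI-ILC2s, against 5.53 and 10.2 in WAT-ILC2s, so the libraries of each tissue were far apart and its call is at the edge of the threshold. The initiation and elongation factor genes Mtif2, Mtif3, Tufm, Tsfm and Gfm1 were not called.

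Of 19 tested assembly and rRNA-modification genes, 4 (21.1%) were called toward SI-ILC2s and 3 (15.8%) toward WAT-ILC2s, with a median change of 0.28. The shares of all tested genes were 17.9% and 29.6%. Ddx28 and Mief1 passed the filter only through SI-ILC2s and Mettl15 only through WAT-ILC2s. The helicase gene Ddx28 had 2.71 and 2.96 RPKM in SI-ILC2s, against 0.812 and 0.478 in WAT-ILC2s, a change of 1.23 ± 0.15. The transcription-factor-family gene Mterf3 had 6.12 and 5.39 RPKM against 3.56 and 4.02. The methyltransferase gene Mettl15 had 0.474 and 0.504 RPKM against 2.45 and 1.99, a change of -1.11 ± 0.13. Mief1 (1.75 and 1.66 against 0.613 and 0.652 RPKM) and Mettl17 (4.55 and 4.32 against 3.05 and 2.21 RPKM) were also higher in SI-ILC2s, and Mtg1 (0.609 and 1.24 against 1.96 and 2.48 RPKM) and Mpv17l2 (1.22 and 1.79 against 3.20 and 2.39 RPKM) were higher in WAT-ILC2s.

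Among 8 tested genes of mitochondrial transcription and DNA upkeep, 3 were called toward SI-ILC2s and 2 toward WAT-ILC2s. Of all tested genes, 17.9% and 29.6% were called in these directions. Tfb2m and Tfam, factors that start transcription of the mitochondrial genome, had 12.8 and 12.3 against 5.58 and 7.03 RPKM and 7.02 and 7.22 against 4.86 and 3.20. Supv3l1, a helicase of mitochondrial RNA turnover, had 14.8 and 13.4 against 6.43 and 8.08 RPKM. The DNA polymerase genes Polg2 and Polg went the other way, with 4.32 and 3.05 against 17.0 and 12.9 RPKM and 3.60 and 3.46 against 9.20 and 6.69.

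Of 7 tested regulators linked to mitochondrial biogenesis, 1 (14.3%) was called toward SI-ILC2s and 2 (28.6%) toward WAT-ILC2s. These shares are near the 17.9% and 29.6% of all tested genes. Myc had 36.02 and 36.4 RPKM in SI-ILC2s, against 14.2 and 14.5 in WAT-ILC2s, a change of 1.28 ± 0.13. Yy1 had 9.50 and 7.72 RPKM against 17.6 and 13.8, and Mycn 2.39 and 2.15 against 4.25 and 4.26.

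**Figure D3:**
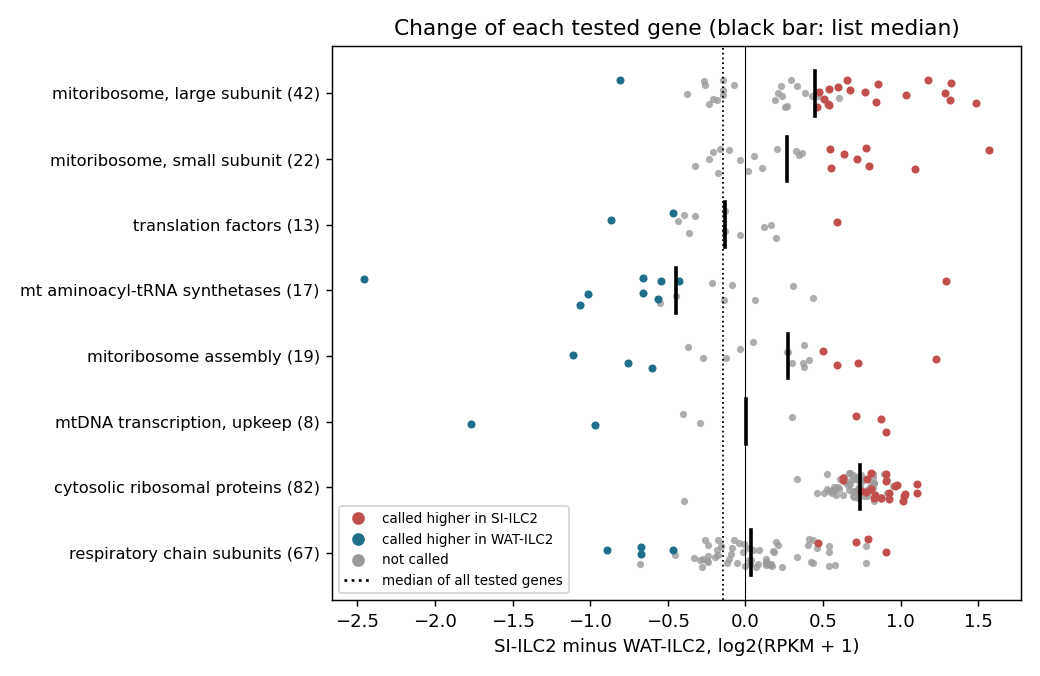
Log2 change (SI-ILC2 minus WAT-ILC2) of every tested gene of 8 lists, with genes called higher in SI-ILC2s in red, genes called higher in WAT-ILC2s in blue, a black bar at each list's median and a dotted line at -0.15, the median of all tested genes. The mitoribosomal subunits have medians of 0.45 and 0.26 and the mitochondrial aminoacyl-tRNA synthetases of -0.45.

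The cytosolic ribosomal protein genes and the nuclear-encoded respiratory chain subunits are given beside these genes. Their tested genes had median levels of 99.2 and 5.48 RPKM, against 2.595 for the mitoribosomal genes. The log2(RPKM + 1) scale understates changes of low genes, so sizes are not on a like scale between the lists. Of 82 tested cytosolic ribosomal protein genes, 22 (26.8%) were called higher in SI-ILC2s and none higher in WAT-ILC2s, with a median of 0.74. Of 67 tested respiratory chain genes, 4 (5.97%) were called in each direction, with a median of 0.03. The shares of all tested genes were 17.9% toward SI-ILC2s and 29.6% toward WAT-ILC2s. Replicates were apart in these lists too. Replicate 2 minus replicate 1 had a median of -0.41 in SI-ILC2s and -0.80 in WAT-ILC2s for the cytosolic ribosomal protein genes, and of -0.16 and -0.36 for the respiratory chain genes.

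For the mitoribosomal protein genes these medians were nearer to 0 on this scale, which shrinks differences of low genes. A single library on each side allows no test. The median of replicate 2 minus replicate 1 was -0.055 on the log2 scale in SI-ILC2s and -0.093 in WAT-ILC2s, against 0.038 and 0.022 for all tested genes. These medians moved with the settings, from -0.11 with quantile normalization to -0.0072 with equal sums in SI-ILC2s, and from -0.15 to -0.045 in WAT-ILC2s. Replicate 2 was lower in 41 of 64 genes in SI-ILC2s (64.1%, against 43.5% of all tested genes) and in 43 in WAT-ILC2s (67.2%, against 46.6%). Both tissues showed it in 29 genes, and whether the tissues share this difference was not tested.

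Few members differed by more than 1.5-fold, on the log2(RPKM + 1) scale, between the replicates of a tissue. In SI-ILC2s this was Mrpl22 alone, a protein of the exit tunnel, with 2.79 RPKM in replicate 1 and 1.17 in replicate 2. No member was past 1.5-fold in the other direction (2.56% of all tested genes were higher in replicate 2 and 0.644% lower). Mrpl22 was above both WAT-ILC2 values (1.05 and 0.733 RPKM) in both SI-ILC2 libraries, and it was not called (adjusted p = 0.10). It was called without SI-ILC2 replicate 2 (limma, adjusted p = 0.0065) and without WAT-ILC2 replicate 1 (limma, adjusted p = 0.0016). The next largest differences in SI-ILC2s were those of Mrps27, Mrpl39 (1.31 and 2.07 RPKM) and Mrps12 (0.969 and 1.61 RPKM), the last of the decoding centre.

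In WAT-ILC2s, Mrpl13 and Mrpl20 were lower in replicate 2 past 1.5-fold and Mrpl53 was higher, against 3.32% and 3.04% of all tested genes. Mrpl20 had 2.82 and 1.40 RPKM in replicates 1 and 2, Mrpl13 had 2.20 and 1.10 and Mrpl53 had 1.54 and 3.05. Mrps28, next in size, had 1.52 and 0.679 RPKM, the lower of these from about 35 reads, and lay just inside the threshold. For all 4, the SI-ILC2 values lay within or overlapped the range of the WAT-ILC2 values, and none was called. Mrpl20 was called without WAT-ILC2 replicate 1 (limma, adjusted p = 0.0061), and Mrpl53 and Mrpl13 without WAT-ILC2 replicate 2 (limma, adjusted p = 0.004 and 0.026).

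Gene length moved with the replicate differences. The 64 genes have a median exon length of 2394 bases, against 4390 for the 7930 tested genes with a length (GENCODE M21). Across all tested genes, replicate 2 minus replicate 1 had a median of -0.11 in SI-ILC2s and -0.27 in WAT-ILC2s for exon lengths up to 1500 bases, and of 0.083 and 0.073 above 6000 bases. For the members in these classes the medians were -0.13 and -0.15 (14 genes) and 0.018 and 0.053 (12 genes). The median change between tissues in the members was 0.32 up to 1500 bases, 0.35 in 25 genes from there to 3000, 0.54 in 13 genes to 6000 and 0.011 above, while the medians of all tested genes fell from 0.079 to -0.22. Once the length trend of each library had been removed, an alternative chosen after the data were seen, 27 members were called toward SI-ILC2s and 1 toward WAT-ILC2s, and 24 of the 27 were among the 26. The balance over all genes moved as well, to 1854 (23.4%) and 1813 (22.9%) of the 7930 genes then tested.

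**Figure D4:**
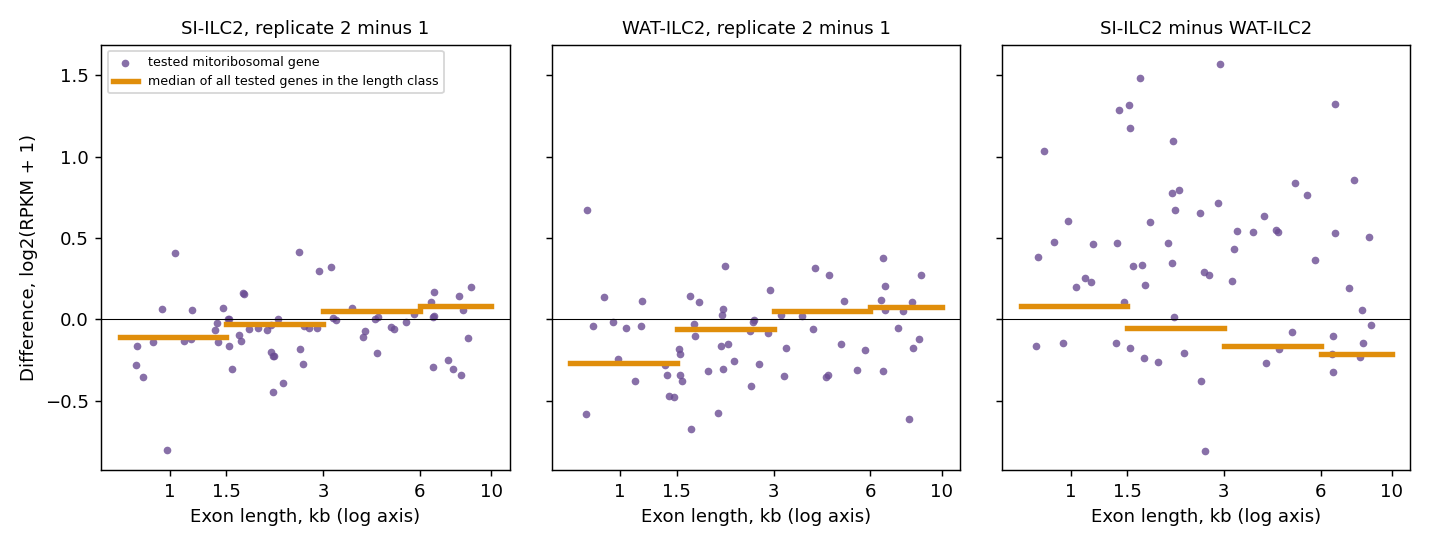
Differences on the log2(RPKM + 1) scale of the 64 tested genes (purple points) against exon length in kilobases (log axis), between replicates of SI-ILC2s (left), between replicates of WAT-ILC2s (middle) and between tissues (right), with orange bars for the median of all tested genes in 4 length classes. The orange bars rise with length in the replicate panels, from -0.11 to 0.083 and from -0.27 to 0.073, and fall from 0.079 to -0.22 in the tissue panel.

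The position of the genes limits what some values show. Exons of 32 of the 77 genes overlap another annotated gene, 27 of them on the opposite strand and 8 on the same strand. Of the 26 genes called higher in SI-ILC2s, 14 have no such overlap, among them Mrps2, Mrpl54, Mrpl17, Mrpl32 and Mrps22. RefSeq names 6 pseudogenes of Mrpl23, Mrpl27, Mrpl48 and Mrps36, whose reads may not be separable from those of the parent genes. Of these parents, Mrpl23 and Mrpl48 were tested and not called, and Mrpl27 and Mrps36 were not tested.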

How the data were processed

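RNA-seq values of 4 libraries, 2 SI-ILC2 and 2 WAT-ILC2, were used. The deposited values are RPKM made by the authors. Per the submitters' processing notes, STAR 2.6.0, featureCounts 1.6.0 of Subread and the mouse build mm10 were used. Annotation, strand setting and the treatment of reads with several matches: not given in the sources used here. RPKM are not counts, so log2(RPKM + 1) was fitted with limma 3.58.1 (R 4.3.3) with a variance trend, over the 8230 genes at 1 RPKM or more in at least 2 libraries, with Benjamini-Hochberg adjustment over all of them and a threshold of 0.05. An exact permutation test of 2 against 2 libraries cannot go below p = 0.33. The script was tested on simulated data. Depth was fitted from the steps between low RPKM values (82.0% to 83.1% of the values used were whole reads within 0.1), and read numbers are estimates from it and from exon lengths of GENCODE M21.

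The mitoribosomal genes and all lists were chosen with earlier results of these data known. Genes named with values were the 8 with the largest called change in each direction, the 6 highest and 6 lowest by level, the 4 with the largest replicate difference in each tissue, the S18 relatives, the 4 with the smallest change that was not called, and up to 3 called genes in each direction of each pathway list. Mrps11, Mrpl17, Mrpl32, Mrpl3, Mrps21 and Ict1 were named after their values were seen. Alternatives in pseudocount, filter, scaling, variance model, replicate block, left-out libraries and length trend are given at the end. Some genes that this rule or the marker lists would name are not reported here.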

Additional observations from a re-analysis of the deposited data

How the results depend on the processing

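All 14 settings called Mrpl12, Mrpl17, Mrpl19, Mrpl32, Mrpl43, Mrpl44, Mrpl46, Mrpl54, Mrps2, Mrps11, Mrps18b and Mrps30 higher in SI-ILC2s. With at least 1 RPKM required in all 4 libraries, 17 of 50 mitoribosomal genes were higher in SI-ILC2s, because fewer genes were tested, and 11 genes of the other mitochondrial translation lists (18 with the main filter) were higher in WAT-ILC2s. Leaving out 1 library gave 17 to 30 mitoribosomal genes toward SI-ILC2s and 1 to 3 toward WAT-ILC2s, 983 to 1595 and 1492 to 2551 among all genes, and 7 to 12 and 10 to 19 in the translation lists. The lowest count of mitoribosomal genes, 17, came without SI-ILC2 replicate 1, as did the 1492. The lone library of a tissue was then assumed to vary like the others. The median change of 0.36 was 0.47 with a pseudocount of 0.1, 0.26 with no filter, 0.51 with median-of-ratios scaling, 0.23 with equal sums, 0.48 with quantile normalization and 0.26 to 0.43 without 1 library. In the translation lists, calls higher in SI-ILC2s rose from 11 to 17 with median-of-ratios scaling and to 19 with quantile normalization. The cause of these shifts was not tested.

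The labels do not say whether same-numbered libraries of the tissues share more than the number, such as mice or a batch. Deviations of same-numbered libraries had a Pearson r of 0.572 across all tested genes and 0.0786 across the mitoribosomal genes. With the replicate block, 36 mitoribosomal genes were called toward SI-ILC2s and 3 toward WAT-ILC2s, 2271 of all genes toward SI-ILC2s and 3430 toward WAT-ILC2s, and the translation lists had 20 and 28 calls. Of the named genes that were not called, the block called Mrpl22 (limma, adjusted p = 1.9e-04), Mrps7 (0.0014), Mrpl9 (0.02), Mrpl53 (0.022) and Mrpl20 (0.036). Mrps7 was also called with median-of-ratios scaling (limma, adjusted p = 0.022). The call of Mrpl39 was lost with no filter (limma, adjusted p = 0.053) and without SI-ILC2 replicate 2 (limma, adjusted p = 0.061).

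Signs turned only for genes that were not called. Median-of-ratios scaling gave 0.072 for Mrps35 and 0.030 for Mrpl23, quantile normalization 0.13 for Mrps35, 0.085 for Mrpl23 and 0.012 for Mrps28, and equal sums -0.093 for Mrps27 and -0.033 for Mrps10. Removing the length trend, chosen after seeing the data, gave 0.16 for Mrps35 and 0.091 for Mrpl23. With each library left out in turn, Mrps27 ranged from -0.21 to 0.24, Mrps35 from -0.17 to 0.10, Mrps10 from -0.11 to 0.23, Mrps12 from -0.0041 to 0.41, Mrpl13 from -0.54 to 0.073, Mrps28 from -0.46 to 0.13, Mrpl23 from -0.15 to 0.0010 and Mrpl20 from -0.0040 to 0.67. Depth limits genes such as Mrpl34, at about 11 reads in its lowest library.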

Other observations

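Of the 77 mitoribosomal genes, 33 had another gene starting on the opposite strand within 1000 bases of their own start, and both genes were tested in 20 distinct pairs. One of these is Mrpl46 with Mrps11. In the other 19 pairs the partner was no mitoribosomal gene, and in 10 of these the mitoribosomal gene was called higher in SI-ILC2s. The partner was called higher in SI-ILC2s in 3 of the 10, higher in WAT-ILC2s in 3 and not called in 4. For all tested genes the called shares were 17.9% and 29.6%. Wdfy1, which starts beside Mrpl44, had 1.30 and 1.49 RPKM in SI-ILC2s, against 2.93 and 5.17 in WAT-ILC2s, a change of -1.04 ± 0.23 (SE), opposite to that of Mrpl44 (limma, adjusted p = 0.012). B430218F22Rik, beside Mrps30, had 2.52 and 2.74 RPKM against 0.831 and 1.24, a change of 0.84 ± 0.15 (limma, adjusted p = 0.0058). These partners were named after their values were seen.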
